A study of Mus musculus with 10 samples.

Results

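The genes described here are 32 interferon and antigen presentation genes, 23 of them interferon-induced and 9 of the MHC class I machinery, in adult mouse hippocampus with and without DLK. DLK (dual leucine zipper kinase) is the product of Map3k12. The interferon-induced group is named as a whole, and it includes Irf3, a factor that acts before interferon is made. Genes were taken from a list by name, and each was measured by the brightest probe whose RefSeq accession belongs to it. By this rule 31 of the 32 were measured, among 23574 features tested. No accession of a probe belonged to Mx1, so Mx1 has no value here. The series holds hippocampal RNA of 5 DLK wild-type (WT) samples and 5 samples with a DLK conditional knockout (cKO). WT and cKO mice alike were on a tamoxifen diet for 3 weeks, so tamoxifen is shared by both groups. Each sample was labelled with Cy5 and read on its own Agilent array against the same Cy3-labelled Universal mouse reference RNA. Every sample has its own number in the labels and is taken as 1 mouse. The labels do not state this, and p-values measure only the spread between these samples. Neither the recombinase nor the mice's strain, sex and exact age is stated in the labels used here. The tissue is bulk hippocampus, in which fewer cells of a type and less RNA per cell cannot be told apart.

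Type I interferons signal through a cell surface receptor and the kinases JAK1 and TYK2 to a complex that holds STAT2 and IRF9 and binds the interferon-stimulated response element (ISRE) of target promoters. Interferon gamma acts through its own receptor, through promoters with a gamma-activated site (GAS) and through IRF1. The induced proteins block viral entry, translation and replication. Both interferons also raise MHC class I, the complex that shows peptides made by the proteasome to cytotoxic T cells. In the healthy brain these genes are expressed at a low resting level, mainly in microglia, endothelium and other non-neuronal cells.

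The response element is what many of the interferon-induced members share in sequence, and 4 stretches that carry it are shown to make the binding motif visible. Promoter sequence from RefSeq (build GRCm38.p6) was matched by symbol for 28 of the 32 members, and the 250 bases before the start site were searched on both strands. The ISRE was searched as GAAA, any 2 bases and GAAA again, or TTTC, any 2 bases and TTTC on the other strand, with overlapping matches allowed. It was found in 10 of 20 interferon-induced members (50%), in 1 of 8 class I members (12.5%) and in 3.46% of all 27025 genes with a promoter. The GAS, searched as TTCNNNGAA, was found in 4 of 20 interferon-induced members, in 1 of 8 class I members and in 8.13% of all genes. A match is a description of these letters only. In the sequences, written 5′ to 3′ on the strand of the gene, capitals mark the ISRE matches. Isg15 (chr4:156200845-156200926, minus strand) has 3 overlapping matches, Ifit1 (chr19:34640755-34640843, plus strand) has 2, and Gbp2 (chr3:142620574-142620643, plus strand) and the class I light chain gene B2m (chr2:122147518-122147587, plus strand) have 1 each.
Isg15: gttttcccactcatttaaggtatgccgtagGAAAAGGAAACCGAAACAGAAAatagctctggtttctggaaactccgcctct
Ifit1: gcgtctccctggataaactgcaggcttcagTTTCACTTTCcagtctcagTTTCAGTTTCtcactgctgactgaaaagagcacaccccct
Gbp2: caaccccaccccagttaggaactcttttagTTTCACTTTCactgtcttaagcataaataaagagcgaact
B2m: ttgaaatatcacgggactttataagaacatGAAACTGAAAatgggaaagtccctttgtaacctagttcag

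Median Cy5 signal of the arrays was between 146 and 202. Every one of the 31 members was well above background in both channels on all 10 arrays, and none was saturated. Markers of hippocampal neurons were well above background for 10 of 10 listed genes, and their mean log2 ratio of 3.20 ± 0.11 (SD, n = 5) among WT samples compared with 3.24 ± 0.14 (SD, n = 5) among cKO samples. Map3k12 itself fell by 1.41 log2 units (SE 0.12) with an adjusted p of 0.000975 in limma. It was the only one of the 23574 features to pass an adjusted p under 0.05, and with all spots kept in the background fit its limma adjusted p was 0.971. The arrays lay on 3 slides, with 4 cKO arrays on slide 1, 3 WT arrays and 1 cKO array on slide 2, and 2 WT arrays on slide 3, so slide and genotype overlap in large part.

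The question put to the members was whether hippocampal tissue without DLK carries a changed interferon or antigen presentation signature. Interferon-induced genes and class I genes had nearly the same level in both genotypes. Of the 31 members 0 passed the threshold in limma, where 0.00424% of all features did. None had an unadjusted p under 0.05 either, against 3.86% of all features. Every member had an adjusted p of 0.9999, and the smallest unadjusted p was 0.175, for Usp18. The WT and cKO mice overlapped for all 31, and 0.768% of all features had no overlap between the groups.

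The differences were small in this fit, which has no term for slide. The largest difference upward was 0.11 on the log2 scale (SE 0.08), for Usp18, and the largest downward was −0.08 (SE 0.07), for Irf1. For 30 of the 31 members the 95% interval stayed inside 1.25-fold in both directions, which held for 84.9% of all features. The exception was Gbp2, whose cKO level was 107% of WT with an interval from 91.1% to 125%. All 31 intervals lay within 1.5-fold, against 98.5% of all features. With slide as a fixed block, which rests on 1 cKO mouse, 5 members had values outside these intervals, Gbp3 (−0.40), Psmb9 (−0.21), Ifitm3 (−0.20), Ifit3 (−0.17) and Irf7 (0.25), and 0 passed the limma threshold. The background offset of 50 pulls the underlying ratios towards 0. This touches dim probes most, such as those of Tap1, Irf7, Ifit1 and Rsad2, whose Cy5 signals lay between 65.8 and 114.5.

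The median difference was 0.05 for the 22 interferon-induced genes, 0.01 for the 9 class I genes and 0.01 for all features. Values above 0 were found for 16 of 22 interferon-induced genes and 5 of 9 class I genes, where 54.8% of all features were above 0. The sign of the interferon-induced median turned when either of 2 mice was left out. Leaving out WT replicate 5 gave −0.02 and leaving out cKO replicate 5 gave −0.0042. Leaving out both, an alternative chosen after the data were seen, gave −0.04. The sign also turned with array weights (−0.02) and with median centring (−0.03, where the median of all features was −0.06). For class I genes the same medians were −0.01, −0.01 and −0.04. With slide as a fixed block the medians were −0.06 and −0.02, and these rest on the single cKO mouse of slide 2.

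**Figure D1:**
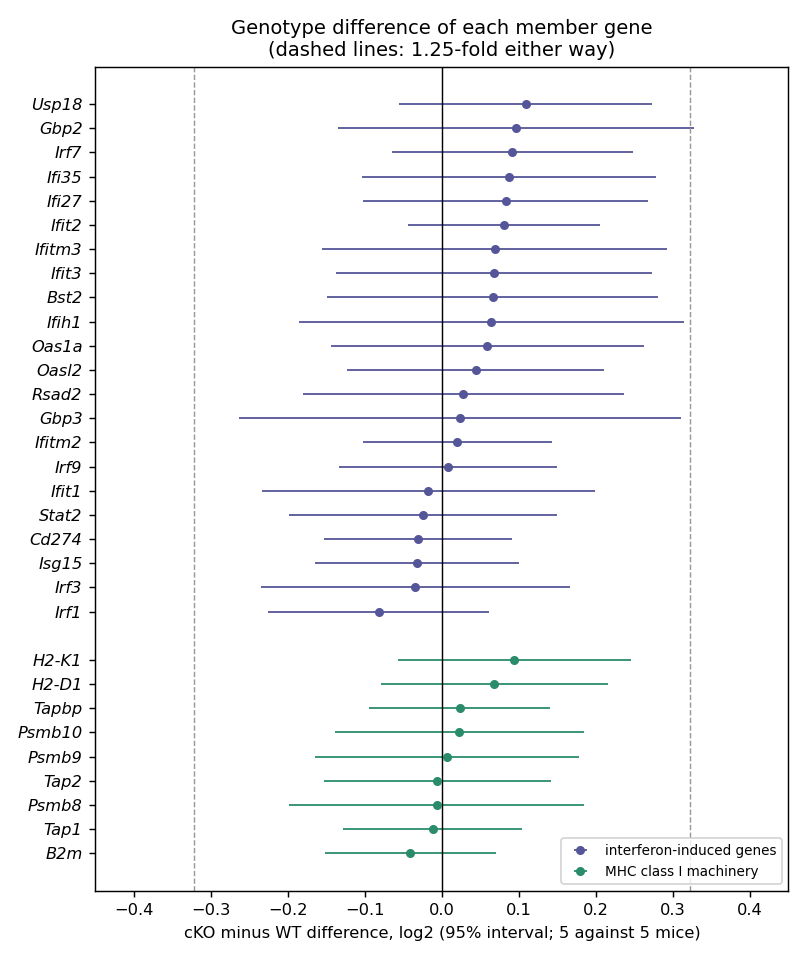
Difference between genotypes (cKO minus WT, log2) for each member, with its 95% interval from limma, 22 interferon-induced genes above and 9 class I genes below. All intervals include 0, and only that of Gbp2 reaches past the dashed line at 1.25-fold.

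Sensing and signal transduction come first in the pathway. Ifih1 encodes MDA5, a cytoplasmic sensor of viral RNA. WT mice averaged −0.96 ± 0.23 (SD, n = 5) and cKO mice −0.90 ± 0.19 (SD, n = 5), a difference of 0.06 (SE 0.12). Mice thus differed among themselves by more than the genotypes did. A dimmer Ifih1 probe was well above background on 0 of 10 arrays. Irf3, the factor that sensors activate to start interferon transcription, had log2 ratios of −0.87, −0.75, −0.84, −0.92 and −1.11 in WT replicates 1 to 5. In cKO replicates 1 to 5 it had −1.14, −0.81, −0.79, −1.12 and −0.79. The cKO mice thus split into 3 with high and 2 with low values, within or just outside the WT range, and the difference was −0.03 (SE 0.09).

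Irf7, which amplifies the response, had a difference of 0.09 (SE 0.07), with its highest values in cKO replicates 2 (−1.94) and 5 (−2.00). Over the alternatives Irf7 ranged from −0.08 to 0.26, with the highest value from the processed signals of the scanner software. On slide 2 alone, where 1 cKO mouse stands against 3 WT mice, Irf7 was the only member with an unadjusted p under 0.05 in limma (0.0491), with a difference of 0.25 and an adjusted p of 0.590. Stat2 and Irf9 encode parts of the complex that binds the ISRE. Stat2 was at −0.85, −0.48, −0.70, −0.81 and −0.70 in WT replicates 1 to 5 and at −0.91, −0.60, −0.69, −0.69 and −0.77 in cKO replicates 1 to 5. Replicate 2 was the highest mouse in either genotype and replicate 1 the lowest, and the means differed by −0.02 (SE 0.08). Irf9 differed by 0.01 (SE 0.07).

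Irf1, the factor that relays interferon gamma to class I and guanylate-binding protein genes, was at −2.47, −2.44, −2.43, −2.58 and −2.31 in WT replicates 1 to 5. In cKO replicates 1 to 5 the values were −2.61, −2.61, −2.59, −2.41 and −2.43. Of the cKO mice 3 lay below all WT mice and the other 2 above the WT mean. The difference of −0.08 (SE 0.07) kept its sign in all 27 alternatives, from −0.17 to −0.05, and passed in 0 of them. Some of these alternatives leave a member's difference unchanged by construction. Another Irf1 probe was well above background on 1 array and was not tested. Usp18 removes ISG15 from proteins and damps receptor signalling, and its cKO level was 108% of WT (95% interval 96.2% to 121%). All 5 cKO values of Usp18 lay above the WT mean of −4.08, but WT replicate 5 (−4.34) was far below the other WT mice (−4.16 to −3.95), and without it the difference was 0.05.

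Effectors act on the virus or the infected cell, and 12 of the 13 listed were measured. Their median difference was 0.06, with 10 of 12 above 0. Ifi27 encodes a small membrane protein of mitochondria and the nuclear envelope and had the brightest effector probe. In WT replicates 1 to 5 its log2 ratio was −0.54, −0.32, −0.33, −0.58 and −0.59, and in cKO replicates 1 to 5 it was −0.51, −0.52, −0.35, −0.42 and −0.15. The high value of cKO replicate 5 stood above all other mice, and the remaining 4 cKO mice lay inside the WT range. The difference was 0.08 (SE 0.09), and 0.02 without cKO replicate 5.

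Ifitm3 encodes a membrane protein that stops viruses from fusing with the endosome. WT replicates 1 to 5 had −2.26, −2.09, −2.09, −2.28 and −2.62, and cKO replicates 1 to 5 had −2.17, −2.41, −2.22, −2.00 and −2.19. The lowest mouse was WT replicate 5 and the highest cKO replicate 4, with the other 8 interleaved, and the difference was 0.07 (SE 0.10). Its 10 single spots had a median SD of 0.0744 within an array, and the array means of these spots an SD of 0.184 between mice of a genotype. H2-K1, also with 10 spots, had 0.0490 for single spots within an array and 0.108 for array means between mice. Tap1, with 10 spots too, had 0.120 and 0.0633. A mean of 10 spots varies less than a single spot, so the 2 measures cannot be compared directly.

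Isg15 encodes an interferon-induced, ubiquitin-like protein that is attached to other proteins. Its log2 ratio was −2.60, −2.68, −2.62, −2.61 and −2.87 in WT replicates 1 to 5. Values in cKO replicates 1 to 5 were −2.68, −2.78, −2.65, −2.73 and −2.70. All cKO values lay between the lowest and the highest WT mouse, and the difference was −0.03 (SE 0.06). A dimmer Isg15 probe gave −0.04 (SE 0.08).

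The other 9 effectors differed by −0.02 to 0.09. Ifit1 (−0.02), Ifit2 (0.08) and Ifit3 (0.07) encode proteins that bind viral RNA and block its translation. Oas1a (0.06) and Oasl2 (0.04) belong to the oligoadenylate synthetase family, whose active members switch on the ribonuclease RNase L. Bst2 (0.07) encodes tetherin, which holds budding virions at the cell surface. In Bst2, 4 of the 5 cKO mice lay between −3.34 and −3.10, inside or near the WT range of −3.40 to −3.08, and cKO replicate 5 stood at −2.82. Without that mouse the difference was −0.02. Rsad2 (0.03) encodes viperin, an enzyme that makes a chain-terminating nucleotide, and Ifitm2 (0.02) and Ifi35 (0.09) complete the group. A second Oas1a probe gave −0.03 (SE 0.08), so the sign of Oas1a depends on the probe. A probe may also bind RNA of near copies, which was not checked. This leaves the Oas1 family, Ifit3 and the Ifitm2 and Ifitm3 pair uncertain as single genes.

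Guanylate-binding proteins, which attack vacuoles holding pathogens, and Cd274, the inhibitory T cell ligand PD-L1, answer mainly to interferon gamma. Gbp3 was at −0.35, −0.85, −0.88, −0.79 and −1.16 in WT replicates 1 to 5. In cKO replicates 1 to 5 it was at −0.75, −1.06, −0.72, −0.84 and −0.55. WT mice alone spanned the whole range of both groups, and the difference was 0.02 (SE 0.13). Gbp2 was at −1.15, −1.29, −1.50, −1.23 and −1.78 in WT replicates 1 to 5 and at −1.33, −1.31, −1.35, −1.12 and −1.34 in cKO replicates 1 to 5. All 5 cKO mice lay above the WT mean of −1.39, which WT replicate 5 pulls down, and without that mouse the difference of 0.10 (SE 0.11) was −0.0003.

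Gbp2 and Gbp3 were also the 2 members that differed between slides at an unadjusted p under 0.05 (limma F test, 0.0092 and 0.0383, adjusted p 0.856 for each), where 4.70% of all features did. With slide as a fixed block Gbp3 was at −0.40 and Gbp2 at −0.09, in comparisons that rest on 1 cKO mouse. Cd274 was at −1.12, −1.18, −1.14, −1.29 and −1.20 in WT replicates 1 to 5 and at −1.21, −1.31, −1.25, −1.21 and −1.10 in cKO replicates 1 to 5. Its groups overlapped almost fully, and the difference was −0.03 (SE 0.06).

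**Figure D2:**
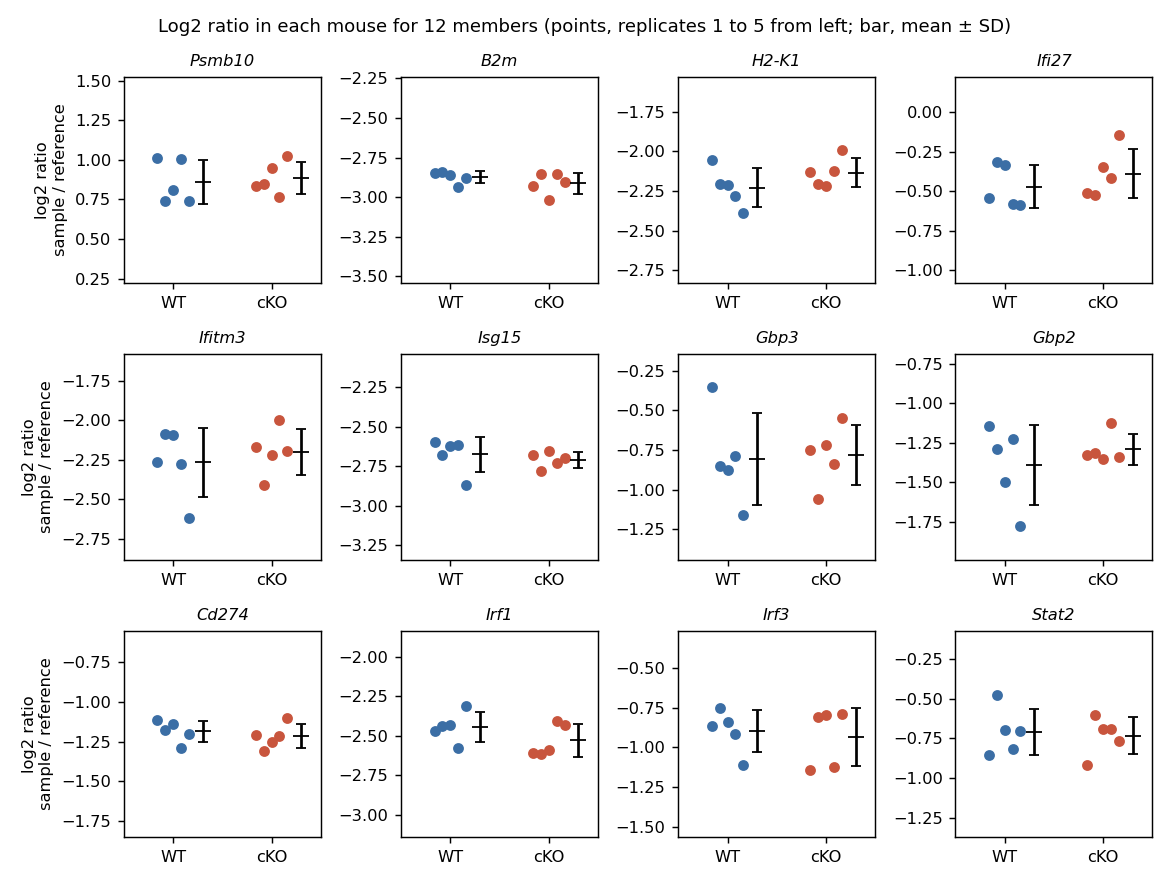
Log2 ratio of hippocampus over reference in each mouse (points, n = 5 per genotype) with the mean ± SD, for the 3 brightest members of each role. WT and cKO points overlap for all 12 genes.

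The class I machinery makes, transports and presents peptides. Psmb8, Psmb9 and Psmb10 encode the interferon-inducible catalytic subunits of the immunoproteasome. Psmb10 was at 1.01, 0.74, 0.81, 1.004 and 0.74 in WT replicates 1 to 5 and at 0.83, 0.85, 0.95, 0.77 and 1.02 in cKO replicates 1 to 5. These values interleave, and the difference was 0.02 (SE 0.07). Psmb8 differed by −0.01 (SE 0.09) and Psmb9 by 0.01 (SE 0.08). Tap1 and Tap2 form the pump that carries peptides into the endoplasmic reticulum, and tapasin, encoded by Tapbp, holds the class I molecule beside it. Their differences were −0.01 (SE 0.05), −0.01 (SE 0.07) and 0.02 (SE 0.05).

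B2m, the light chain of every class I molecule, was at −2.85, −2.84, −2.86, −2.94 and −2.88 in WT replicates 1 to 5. In cKO replicates 1 to 5 it was at −2.93, −2.85, −3.02, −2.86 and −2.90. The lowest mouse was a cKO mouse and the highest a WT mouse, but the groups overlapped, and the cKO level was 97.2% of WT (95% interval 90.0% to 105%). B2m had the narrowest spread of all members, with a within-genotype SD of 0.0555.

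H2-K1, a heavy chain, was at −2.05, −2.21, −2.21, −2.28 and −2.39 in WT replicates 1 to 5 and at −2.13, −2.21, −2.22, −2.13 and −1.99 in cKO replicates 1 to 5. All 5 cKO mice were above the WT mean of −2.23, yet only cKO replicate 5 was above the highest WT mouse. The cKO level was 107% of WT (95% interval 96.1% to 119%), a difference of 0.09 (SE 0.07), and 0.05 without WT replicate 5. A second H2-K1 probe gave 0.10 (SE 0.06). The other heavy chain, H2-D1, differed by 0.07 (SE 0.07). Class I heavy chain genes are close copies of each other, so a probe for one may bind RNA of another.

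Each array also set the hippocampus against the reference pool, a mix of RNA that is not brain alone. In WT mice 22 of 22 interferon-induced genes and 8 of 9 class I genes were below the reference, where 44.2% of all features were. The median log2 ratio was −2.21 for the interferon-induced genes, −2.23 for the class I genes and 0.09 for all features. Usp18 was at 5.89% of the reference, Oas1a at 6.41%, Bst2 at 10.7% and B2m at 13.7%. Nearest to the reference were Ifi27 at 72.1% and Ifit3 at 86.7%. Psmb10 alone lay above it, at 182%, while its partners Psmb8 and Psmb9 were at 14.7% and 18.0%. Each such value is of a gene against the same gene in the pool, and it includes a dye effect because no dyes were swapped. The probes of Oas1a disagreed here, with log2 ratios of −3.96 and −2.37 in WT mice.

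**Figure D3:**
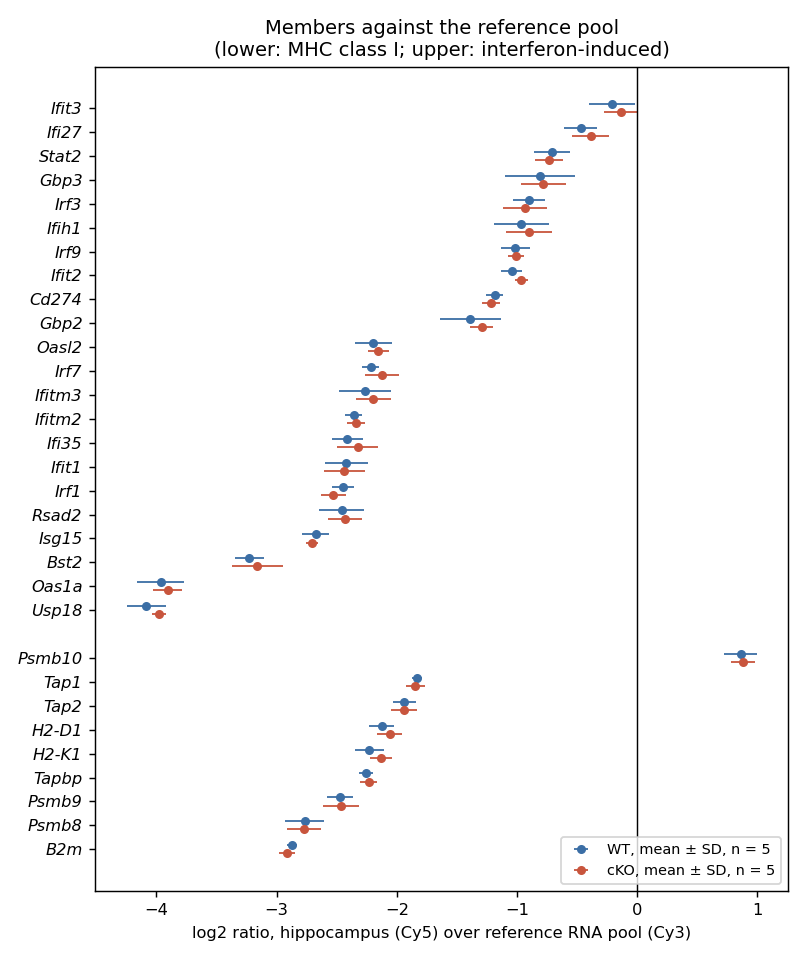
Log2 ratio of hippocampus (Cy5) over the reference RNA pool (Cy3) for each member, mean ± SD over 5 WT and 5 cKO mice, with a line at equal levels. The means of every member but Psmb10 lie left of the line, and the WT and cKO means of each gene lie side by side.

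Interferon-induced members varied between mice in a partly shared pattern, most often lowest in 1 WT mouse and most often highest in 1 cKO mouse. Both parts depended on the processing. WT replicate 5 was the lowest of the 10 mice for 16 of 22 interferon-induced genes and 4 of 9 class I genes, against 20.1% of all features. cKO replicate 5 was the highest for 10 of 22 and 6 of 9, against 20.7% of all features. The median deviation of the interferon-induced genes from each gene's mean over mice was 0.09, 0.04, 0.05, −0.06 and −0.20 in WT replicates 1 to 5. In cKO replicates 1 to 5 it was −0.05, −0.02, 0.02, −0.0040 and 0.13. The same value for class I genes was 0.10, −0.03, −0.03, −0.04 and −0.12 in WT replicates 1 to 5 and −0.04, −0.03, −0.05, 0.03 and 0.13 in cKO replicates 1 to 5. WT replicate 1 was thus nearly as high as cKO replicate 5 for class I genes. Irf1 went the other way, with its highest value in WT replicate 5.

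**Figure D4:**
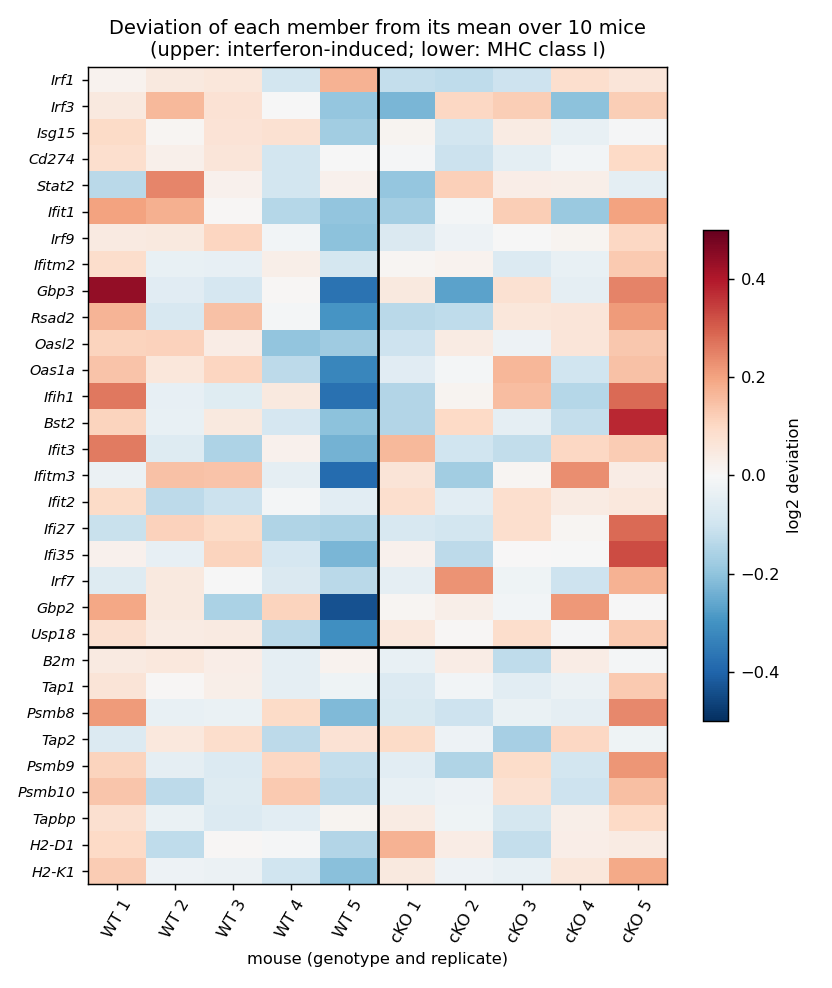
Deviation of each member's log2 ratio from its own mean over the 10 mice, by mouse (columns) and gene (rows). WT replicate 5 is low for most interferon-induced genes, and cKO replicate 5 is high for most members of both groups.

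Some other measures moved with these mice. Median Cy5 signal was highest in WT replicate 5 (202) and lowest in cKO replicate 5 (146), with the other 8 arrays between 169 and 191. The array weights of limma, where a lower weight counts less in the fit, were lowest for WT replicate 5 (0.442) and cKO replicate 5 (0.468). The other 8 arrays had weights from 0.629 to 2.05. Both arrays were also extreme in the opposite direction. WT replicate 5 was highest for 15.71% of all features, and cKO replicate 5 was lowest for 11.98%. For marker lists the deviation is a mean over genes, where that of the member groups is a median. Microglial markers, of which 12 of 12 were tested, had a mean deviation of −0.28 in WT replicate 5 and 0.22 in cKO replicate 5. Astrocyte markers were at −0.34 and 0.38, oligodendrocyte markers at −0.28 and 0.20, and choroid plexus markers at −0.97 and 1.28. Not every list did so: hippocampal neuron markers were at 0.13 and 0.02, and T and NK cell markers at −0.07 and −0.06. The part of these in the pattern was not tested. When arrays were centred on the median in place of loess, WT replicate 5 was lowest for 6 of 22 interferon-induced genes, against 7.87% of all features. cKO replicate 5 was then highest for 0 of 22, against 2.57% of all features, and lowest for 10 of 22, against 52.1%. WT replicate 5 was then highest for 1 of 22, against 26.6% of all features. Of the class I genes, cKO replicate 5 was then highest for 0 of 9 and lowest for 4 of 9. WT replicate 5 was then lowest for 0 of 9 and highest for 2 of 9, against the same shares of all features. The cause of these shares was not tested.

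**Figure D5:**
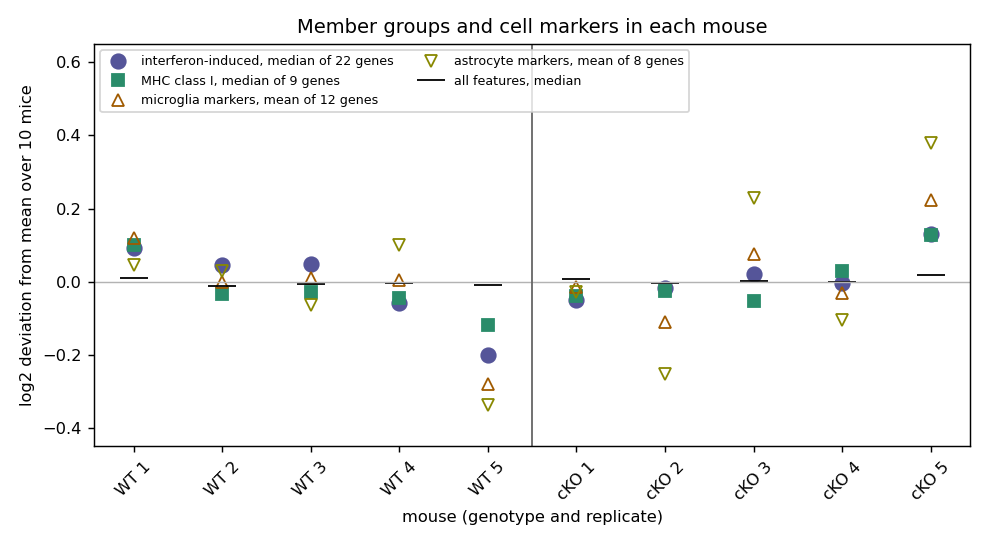
Deviation from the mean over 10 mice, by mouse, as the median over genes for the member groups and the mean over genes for cell type marker lists. WT replicate 5 is at −0.20 and cKO replicate 5 at 0.13 for the interferon-induced genes, and microglial markers are at −0.28 and 0.22 in the same mice.

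Between genotypes the microglial markers, whose cells hold much of the brain's class I and interferon response RNA, had a median difference of 0.06, with 0 of 12 at an unadjusted p under 0.05 in limma. Their mean log2 level ran from 1.86 to 2.26 in WT and from 2.03 to 2.37 in cKO mice. Endothelial markers had mean log2 levels from 1.60 to 1.75 in WT and from 1.74 to 1.83 in cKO mice, and 4 of 10 had an unadjusted p under 0.05 in limma, all higher in cKO, which held for 2.83% of all features. So did 5 of 8 oligodendrocyte markers (median difference 0.21) and 7 of 9 choroid plexus markers (median difference 1.102) and 3 of 8 markers of meninges and fibroblasts (median difference 0.07), also higher in cKO. Border macrophage markers were above 0 for 5 of 5 (median difference 0.14), with 0 at that level. The part of these markers in the values of the members was not tested. Of 8 T and NK cell markers 5 were tested, with 0 at an unadjusted p under 0.05 in limma. The other markers of that list, Cd3d, Cd8a and Gzmb, were not well above background. B cell markers were tested for 3 of 4 and neutrophil markers for 3 of 5, with 0 and 1 at that p, the latter higher in cKO.

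Spread among mice of a genotype had a median SD of 0.147 for interferon-induced genes, 0.104 for class I genes and 0.120 for all features. Gbp3 (0.245), Ifih1 (0.209), Gbp2 (0.191) and Ifitm3 (0.184) varied most. B2m (0.0555), Tap1 (0.0633) and Tapbp (0.0653) varied least.

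In the wider pathway 0 genes passed the limma threshold in each of 4 further lists. Signalling genes, from ligands and receptors to kinases and sensors, were tested for 37 of 41 and had a median difference of 0.02. Of these, 1 had an unadjusted limma p under 0.05, Irf5, a factor of toll-like receptor signalling, at −0.17 (SE 0.07, limma adjusted p = 0.9999), where 1.03% of all features reached that level with a lower value in cKO. Cgas, the sensor of cytosolic DNA, was at −0.19 (SE 0.09) and Ikbke, a kinase that activates IRF3, at −0.16 (SE 0.10). Ikbke was well above background on 4 WT and 2 cKO arrays. The receptor chains Ifnar1 (0.02), Ifnar2 (0.12), Ifngr1 (0.07) and Ifngr2 (0.05) did not pass either.

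Other interferon-induced genes were tested for 41 of 48, with a median difference of 0.0089 and 0 at an unadjusted limma p under 0.05. The smallest p-values were those of Lgals3bp (0.14), Ifi44l (−0.12), Gbp5 (0.08) and Irgm1 (−0.09). Ifi44l was well above background on 4 WT and 2 cKO arrays. Other class I and peptide loading genes were tested for 22 of 27, with a median of 0.02. Erap1, which trims peptides in the endoplasmic reticulum, was at −0.13 (SE 0.05, limma adjusted p = 0.9999). It was the only one of the 22 with an unadjusted p under 0.05, which 1.03% of all features reached with a lower value in cKO. Its groups did not overlap, as for 0.768% of all features, and its probe was dim, with Cy5 signals from 67 to 94. H2-T24 (0.12), H2-Q1 (0.15) and H2-Q10 (0.10) followed. MHC class II genes, which present antigen to helper T cells, were tested for 10 of 11 and had a median of 0.09. H2-Eb1 was at 0.21 (SE 0.08, limma adjusted p = 0.9999) and was the only one with an unadjusted p under 0.05, which 2.83% of all features reached with a higher value in cKO. H2-Ab1 was at 0.22 (SE 0.11), H2-Oa at 0.09 and H2-Aa at 0.08, the last well above background on 3 WT and 4 cKO arrays.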

How the data were processed

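Scanner files hold median intensity values, for spots and local backgrounds of both channels, which the authors obtained with Agilent Feature Extraction 11.0.1.1, per the file headers, without normalization. The same deposited files hold processed intensity and a log10 ratio. The authors' deposited table holds log2 values, and the submitters' processing notes list limma. Both were used as alternatives only. In each channel, background was corrected by normexp (offset 50; limma 3.58.1, R 4.3.3). Ratios were normalised within arrays by loess with control spots at weight 0. The plan named no step for removing marked spots: non-uniform spots left before the background fit, with the outcome of both orders already known. Probes well above background in Cy5 on at least 5 of 10 arrays were kept, and the brightest stood for a gene. Two-sided limma tests were adjusted over 23574 features by the Benjamini-Hochberg method, with a threshold of 0.05. Accessions named 26581 of 39429 probes (67.4%) through the RefSeq table of GRCm38.p6. The code was tested on simulated data. Members and lists were chosen with earlier results of these data known. All 32 members are accounted for, and values in every mouse are given for the 3 brightest of each role. From other lists the 4 genes with the smallest p and the receptor chains are named. A result for an item withheld from this text is not reported here. The number of arrays limits the precision. Alternatives covered background, normalization, filters, probes, slides, array weights, replicate blocks and left-out mice.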

Additional observations from a re-analysis of the deposited data

Results flagged for a closer look

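Of 104 groups of 5 mice examined, 7 held a mouse whose gap to its nearest neighbour, divided by the range of the group, exceeded Dixon's critical value of 0.71, and chance gives about 1 in 20. Among the members, Tap1 was at −1.71 in cKO replicate 5, where the other cKO mice were between −1.91 and −1.85. Psmb8 was at −2.53 in the same mouse, against −2.87 to −2.80. Gbp2 was at −1.12 in cKO replicate 4, against −1.35 to −1.31.

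Among the other pathway genes, Irf5 was at −1.04 in WT replicate 3 (others −0.83 to −0.75), and Ikbke was at −0.66 in WT replicate 2 (others −1.24 to −1.15). H2-T24 was at −0.60 in cKO replicate 2 (others −0.40 to −0.35). Ifnar1 was at 0.78 in WT replicate 5 (others 0.49 to 0.52).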

How the results depend on the processing

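Over 27 alternatives, 0 of 837 member values passed the threshold in limma (lowest adjusted p 0.487), and 137 changed sign. Some alternatives could not move a member's difference: quantile scaling of intensities, other filters on dim probes and the replicate block. Slide as a fixed block and slide 2 only gave the same differences. The alternatives are thus not all separate checks. Isg15, Irf1, Usp18 and Cd274 kept their sign in all of them. The number of features past the threshold, 1 as reported, was 0 with plain background subtraction, Cy5 alone, all spots in the background fit or slide 2 only, and 2 when all probes of a gene were averaged. Under the first 4 of these Map3k12 was at −1.79, −1.18, −1.26 and −1.81, with adjusted p of 0.0579, 0.103, 0.971 and 0.116. Leaving out 1 mouse gave 1 to 2 features, with 2 without cKO replicate 4. The class I median was −0.077 with median centring, which put the median of all features at −0.06, and the interferon-induced median was −0.064 with slide as a fixed block or slide 2 only. The cause was not tested.

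With the replicate number as a block Map3k12 was at −1.41 (adjusted p 0.0161), and 1 feature and 0 members passed. Deviations of same-numbered mice had correlations of −0.19, −0.03, 0.16, −0.38 and −0.56. These correlations cannot tell whether same-numbered mice were paired, since paired mice need not deviate together.

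The offset of 50 understates folds of dim probes, and 5 mice per genotype limit what can be seen.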
